A study of Mus musculus with 6 samples.

Results

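The EGR and AP-1 immediate early factors described here are 10 transcription factor genes, chosen by symbol: Egr1, Egr2 and Egr3 of the EGR family, Fos, Fosb, Fosl1 and Fosl2 of the FOS family, and Jun, Junb and Jund of the JUN family. Each was found once among the 46078 genes of the deposited tables. RNA was measured in 6 libraries of cultured mouse mesoderm explants, 2 in each of 3 groups: control explants, explants given 1 µM PD and explants given 10 µM YZ9, both for 16 h. The explants were cut from E7.25 embryos labelled wild type, while the series text names a TCF/Lef:H2B-GFP reporter strain, and they attached to fibronectin for 3 to 4 h before treatment. Culture lasted 27 h by the growth protocol and 24 h by the series text, and whether controls received a vehicle is not stated. The labels do not expand the name PD. In this study it is known as an inhibitor of MEK, the kinase that activates ERK, and YZ9 as an inhibitor of PFKFB3, an enzyme whose product stimulates glycolysis. Nothing in the labels ties a library to its own embryo or culture, so a p-value here reflects only how these libraries vary. Within the PD group and within the YZ9 group the libraries differed in sex, as read from the counts below. The libraries of each treated group thus hold different embryos. Both controls were male, so sex does not show whether they hold different embryos. The chi-square between them was 54.75 per gene, against 62.19 for the YZ9 pair, where sampling gives about 1. Whether the difference between the controls is technical was not tested.

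Immediate early genes are transcribed within minutes of a growth factor signal, without new protein synthesis. Active ERK phosphorylates ternary complex factors that sit with SRF on their promoters, and it also stabilises the FOS proteins. EGR proteins bind GC-rich DNA through zinc fingers. FOS and JUN proteins pair through leucine zippers to form AP-1: JUN proteins can pair with each other, whereas FOS proteins need a JUN partner. In the gastrulating embryo FGF signalling, which acts in part through ERK, is needed for mesoderm to leave the primitive streak. The same genes are also known to respond to tissue dissection and dissociation.

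Total counts were 21253194 to 27810161 per library. Xist and 4 Y-linked genes showed that both controls, PD replicate 1 and YZ9 replicate 1 were male and that PD replicate 2 and YZ9 replicate 2 were female, so sex cannot be separated from replicate within the treated groups. Of 17 mesoderm markers 15 had enough counts to be tested and 0 passed in any comparison. The 17 summed to 3352 and 2732 CPM in controls, 2492 and 2877 CPM with PD, and 2576 and 2157 CPM with YZ9. Of the 15 tested, 5 had both PD libraries below both controls and 2 had both above, against 19.5% and 19.2% of all genes. With YZ9 these were 3 and 2, against 24.5% and 21.1%. Vim and Fn1 had the highest control means, 1182 and 1173 CPM. Both were below both controls in every treated library, with means of 805.8 and 917.2 CPM with PD and 700 and 779.5 CPM with YZ9. Hand1 had a control mean of 183.6 CPM. Mesp1 and Tbx6, which mark nascent mesoderm, were at or under 0.269 CPM (counts per 1000000 of the library's TMM-adjusted size) in every library. The 8 definitive endoderm markers summed to 12.8 and 19.8 CPM in controls, 608 and 98.7 CPM with PD, and 375 and 134 CPM with YZ9, while Cer1, a defining member, had no more than 0.161 CPM anywhere. The general epithelial genes Cldn6, Cdh1 and Epcam made up most of that sum in the treated libraries. They were at 448.5, 79.8 and 51.9 CPM in PD replicate 1 and 199.7, 113 and 38.4 CPM in YZ9 replicate 1. Foxa2 had the smallest p of this list for PD. Its levels were 0 and 0.151 CPM in controls, 6.50 and 3.18 CPM with PD, and 1.03 and 0.944 CPM with YZ9. Foxa1 was at 0.150 and 0.226 CPM in controls, 4.50 and 1.65 CPM with PD, and 0.627 and 1.25 CPM with YZ9. Of the 7 tested markers 5 had both libraries above both controls with PD, and also with YZ9, and 0 had both below. Over all genes 19.2% had both above with PD and 21.1% with YZ9. The 8 visceral endoderm markers summed to 5.62 and 11.2 CPM in controls and 91.1 and 17.6 CPM with PD. With YZ9 they summed to 4.97 and 7.52 CPM. Afp, with the smallest p for PD, was at 0.899 and 0.565 CPM in controls and 34.3 and 5.76 CPM with PD. Of the 6 tested markers 4 had both PD libraries above both controls, as did 19.2% of genes, and 0 had both below. Apoa4 had no more than 0.0805 CPM. Blood markers differed within groups: 5 genes summed to 2411 and 7307 CPM in controls, 449.5 and 6457 CPM with PD, and 19.6 and 1121 CPM with YZ9. The summed markers of ectoderm lay between 4.96 and 14.1 CPM, those of the epiblast between 56.8 and 93.6 CPM, those of endothelium between 154 and 406 CPM and those of trophoblast, among which Krt8 and Krt18 are general epithelial keratins, between 4672 and 10320 CPM. No gene of any of these marker lists passed edgeR's test in any comparison, and their part in the results below was not tested. In such bulk samples, fewer cells of a type and less RNA per cell cannot be told apart.

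Egr1 fell to the edge of detection with PD while Jun, Fosl2 and Jund had log2 fold changes above 0 that did not pass. Egr1, a zinc finger factor that is among the first genes induced by ERK, had counts of 1236 and 772 (control), 2 and 1 (PD) and 1766 and 861 (YZ9). Of the 9 members that had enough counts to be tested, edgeR's quasi-likelihood test called this 1 lower and 0 higher with PD at an adjusted p under 0.05, where 0.0771% of the 15568 genes tested were called lower and 0.0193% higher. Egr3 was not tested. Egr1, Egr2, Fosb and Fosl1 passed the filter on low counts only through the groups where they were higher, so the counts over the tested members are a description. The members' median log2 fold change with PD was -1.19, against 0 over all genes tested.

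**Figure D1:**
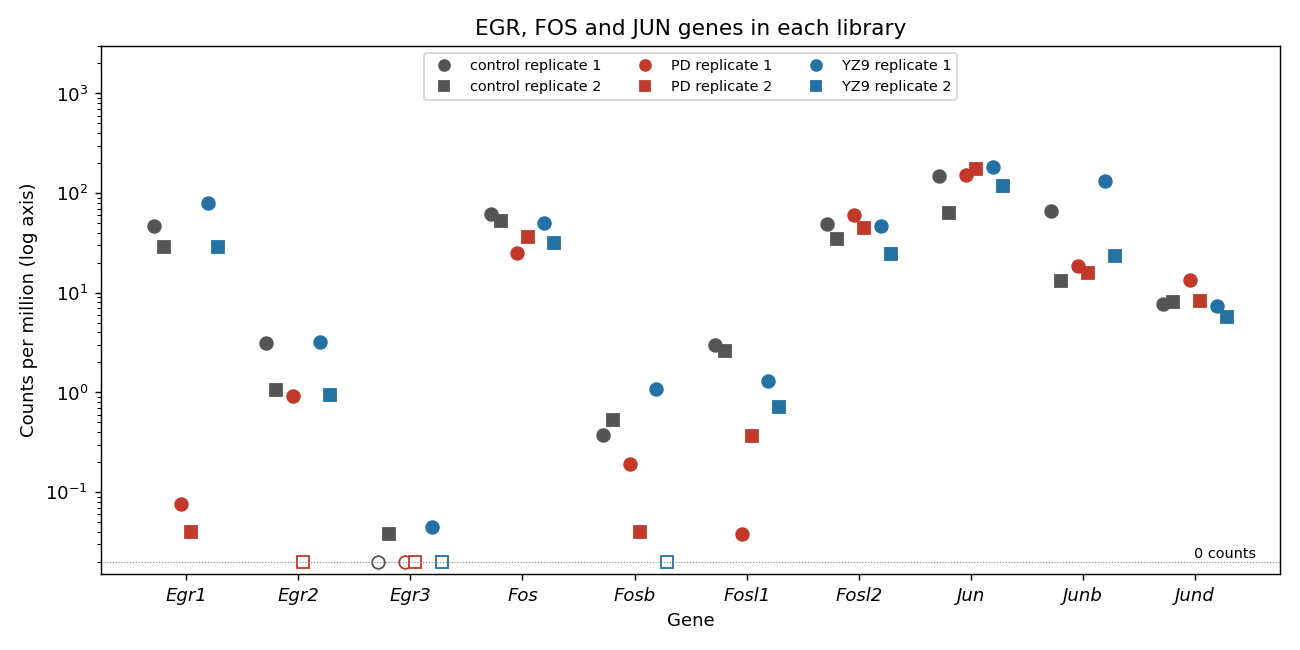
CPM (log axis) of the 10 genes in the 6 libraries, coloured by group, with a circle for replicate 1 and a square for replicate 2; open symbols on the dotted line had 0 counts. Egr1 separates PD from the other groups by the widest gap, the groups of Fosl2 overlap, and the 2 controls and the 2 YZ9 libraries of Junb lie far apart.

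Among the EGR genes, Egr1 (ENSMUSG00000038418, GRCm38 chromosome 18, 34859823 to 34864984) was at 46.3 and 29.1 CPM in controls, 0.0769 and 0.0402 CPM with PD, and 79.1 and 29.0 CPM with YZ9. Every PD value lay below every value of the other groups, whereas control and YZ9 values overlapped. With only 3 counts left in the PD group, the ratio of control to PD was 639 (95% counting interval 218 to 3102, adjusted p = 0.0417 with edgeR). The ratio of YZ9 to PD was 857 (95% counting interval 293 to 4157, adjusted p = 0.0276). Egr1 was lower with PD in 2 of 2 libraries against either group. The authors' deposited table gives Egr1 an adjusted p of 3.25e-21 with PD. The call against control held in 12 of 16 alternatives, with an adjusted p from 1.77e-18 to 0.342. It was lost when either control was left out (adjusted p = 0.342 for replicate 1 and 0.332 for replicate 2) and when either PD library was (adjusted p = 0.0557 for replicate 1 and 0.0568 for replicate 2), although the fitted log2 fold change stayed between -9.71 and -8.83 in the 6 fits that left out 1 library. Among male libraries it was -8.85 (adjusted p = 0.000315), a fit in which the single PD library is assumed to vary like the controls, as it is where 1 library of a group is left out. The call against YZ9 was lost when control replicate 1 or 2 was left out (adjusted p = 0.154 and 0.15), when PD replicate 2 was (adjusted p = 0.0565), and in a fit of the PD and YZ9 libraries alone (adjusted p = 0.194).

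Egr2, best known for its role in hindbrain segments and in myelin, was measured at a far lower level. It lies on chromosome 10, 67535475 to 67542188 (ENSMUSG00000037868). Its counts were 84 and 28 (control), 24 and 0 (PD) and 71 and 28 (YZ9). Both PD values, 0.923 and 0 CPM, lay under both controls, 3.15 and 1.05 CPM, but PD replicate 1 was close to control replicate 2. The log2 fold change with PD was -2.17 (SE 1.38, 95% interval -5.47 to 1.14, adjusted p = 0.686), so the spread between libraries was too wide to show a difference. It was -1.18 without control replicate 1 and also without PD replicate 2, and without PD replicate 1, which leaves PD at 0 counts, the fitted value of -8.77 is no bound. Egr3 (ENSMUSG00000033730, chromosome 14, 70077203 to 70082614), which acts in muscle spindles and lymphocytes, had 1 count in control replicate 2, 1 in YZ9 replicate 1 and 0 in the other libraries, too few to compare groups at this depth.

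The promoter of Egr2 is shown because it is the one member promoter of those read that carries a CArG box, the sequence bound by SRF. The promoter of Egr1 was left out of the search, so whether it carries a CArG box was not asked. The window runs from 250 bases before to 50 after the start, from RefSeq on GRCm38, chr10:67537619-67537918, plus strand, with the match in capitals. The match covers positions -72 to -63 from the start. RefSeq lists 5 starts for Egr2, and only the window at the GENCODE start of its principal transcript, base 67537869, was read. That base lies inside the gene, which begins at 67535475.
Egr2: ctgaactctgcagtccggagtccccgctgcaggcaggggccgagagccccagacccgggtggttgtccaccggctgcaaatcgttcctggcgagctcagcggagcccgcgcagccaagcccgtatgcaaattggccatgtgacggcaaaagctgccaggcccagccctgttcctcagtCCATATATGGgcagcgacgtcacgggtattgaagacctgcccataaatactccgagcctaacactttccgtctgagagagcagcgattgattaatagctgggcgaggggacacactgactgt
A CArG box lies on either strand in 1.63% of the 32851 promoter windows of this length. A match is a description of the letters and not evidence of binding.

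No FOS gene passed in the main test, and the log2 fold changes with PD ran from -3.78 for Fosl1 to 0.33 for Fosl2. Fosl1, which encodes FRA1, a FOS protein whose transcription is known to follow sustained ERK activity, had 79 and 70 control counts, 1 and 9 PD counts and 29 and 21 YZ9 counts. Its levels were 2.96 and 2.64 CPM in controls, 0.0384 and 0.362 CPM with PD and 1.30 and 0.708 CPM with YZ9, so the 3 groups did not overlap and YZ9 lay between the others. The log2 fold change with PD was -3.78 (SE 0.90, 95% interval -5.94 to -1.63, unadjusted p = 0.00458, adjusted p = 0.199), a difference that did not pass in edgeR. In the authors' deposited table the adjusted p of Fosl1 with PD was 0.00655, where 1.86% of genes with an adjusted p were called lower. It also passed with DESeq2 on these counts (adjusted p = 0.00335), where 1.9% of genes were called lower, in edgeR with no filter on low counts (adjusted p = 0.00433), where 1.3% were, and among male libraries (log2 fold change -6.01, adjusted p = 0.0175), where 1.01% were. Over all 15 alternatives it passed in 4, with an adjusted p from 0.00335 to 0.691, and leaving out PD replicate 2 or PD replicate 1 gave log2 fold changes of -6.02 or -2.93. With YZ9 its log2 fold change was -1.48 (SE 0.78, 95% interval -3.36 to 0.39, adjusted p = 0.524). Fosl1 (ENSMUSG00000024912, chromosome 19, 5447547 to 5455946) shares 1163 of its 2033 exonic bases with Ccdc85b on the opposite strand. Ccdc85b had 330 to 554 counts per library, and reads of the shared stretch cannot be given to either gene, since the kit does not mark strand.

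Fos itself, the founding AP-1 subunit and a textbook ERK and SRF target, stayed well detected in every library. Its counts were 1652 and 1400 (control), 656 and 897 (PD) and 1108 and 933 (YZ9). Levels were 61.9 and 52.7 CPM in controls, 25.2 and 36.1 CPM with PD, and 49.6 and 31.5 CPM with YZ9. Both treated groups lay under the controls, and they overlapped each other. The log2 fold change with PD was -0.90 (SE 0.29, 95% interval -1.59 to -0.21, unadjusted p = 0.0181, adjusted p = 0.309), and the authors' deposited table gives Fos an adjusted p of 0.0587. With YZ9 it was -0.50 (SE 0.29, 95% interval -1.19 to 0.19, adjusted p = 0.561). Fos lies on chromosome 12, 85473890 to 85477273 (ENSMUSG00000021250).

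Fosb, a subunit best studied in neurons, was near the detection limit, with counts of 10 and 14 (control), 5 and 1 (PD) and 24 and 0 (YZ9). The YZ9 libraries spanned the whole range, and the log2 fold change with PD was -1.90 (SE 1.69, adjusted p = 0.808). Fosb lies on chromosome 7, 19302696 to 19310051 (ENSMUSG00000003545). Fosl2, which encodes FRA2, was at 48.5 and 34.5 CPM in controls, 59.7 and 44.5 CPM with PD, and 46.6 and 24.6 CPM with YZ9. All 3 groups overlapped. Its log2 fold change was 0.33 with PD (SE 0.35, 95% interval -0.50 to 1.16, adjusted p = 0.852) and -0.22 with YZ9 (SE 0.35, 95% interval -1.05 to 0.61, adjusted p = 0.838). Fosl2 lies on chromosome 5, 32135801 to 32157842 (ENSMUSG00000029135).

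The 3 JUN genes did not pass in any comparison, and Jun and Jund had both PD libraries above both controls. Jun, the main partner of FOS proteins and a target of the JNK kinases, was at 148 and 63.2 CPM in controls, 154 and 174 CPM with PD, and 184 and 119 CPM with YZ9. Both PD values exceeded both controls, control replicate 1 only narrowly. The log2 fold change with PD was 0.63 (SE 0.40, 95% interval -0.33 to 1.59, adjusted p = 0.686), and it was 1.37 without control replicate 1 and 0.14 without control replicate 2. Jund, the JUN gene with the steadiest expression in most cells, was at 7.79 and 8.17 CPM in controls, 13.6 and 8.25 CPM with PD, and 7.39 and 5.70 CPM with YZ9. The groups did not overlap, PD being the highest and YZ9 the lowest, but PD replicate 2 lay just over the controls. The log2 fold change of Jund with PD was 0.45 (SE 0.34, 95% interval -0.36 to 1.26, adjusted p = 0.752).

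Junb, a JUN gene induced by many growth factors, spread widely within the control and YZ9 groups. Its counts were 1752 and 350 (control), 487 and 394 (PD) and 2954 and 688 (YZ9). PD values, 18.7 and 15.9 CPM, lay inside the control range of 13.2 to 65.7 CPM and under both YZ9 values, 132 and 23.2 CPM. The log2 fold change with PD was -1.19 (SE 0.93, 95% interval -3.41 to 1.03, adjusted p = 0.766), and without control replicate 1 it turned to 0.39. Against YZ9 it was -2.17 (SE 0.95, 95% interval -4.44 to 0.11, adjusted p = 0.458), and -0.43 without YZ9 replicate 1. Jun lies on chromosome 4, 95049034 to 95052222 (ENSMUSG00000052684), and Junb and Jund on chromosome 8, 84974484 to 84978718 (ENSMUSG00000052837) and 70698949 to 70700616 (ENSMUSG00000071076). Exons of Jun, Junb and Jund overlap Junos, Prdx2 and Gm11175 on the opposite strand by 232, 173 and 877 bases. Gm11175 had 0 counts in all 6 libraries and Junos 3 to 11, whereas Prdx2 had 9791 to 20107.

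The promoters of Jun and Fos are shown because both PD libraries lay above the controls for Jun and below them for Fos. Both windows run from 250 bases before to 50 after the start, from RefSeq on GRCm38: chr4:95052173-95052472, minus strand, for Jun and chr12:85473640-85473939, plus strand, for Fos. Capitals in Jun mark TGACATCA, the AP-1 variant through which Jun is known to regulate itself, at positions -45 to -38.
Jun: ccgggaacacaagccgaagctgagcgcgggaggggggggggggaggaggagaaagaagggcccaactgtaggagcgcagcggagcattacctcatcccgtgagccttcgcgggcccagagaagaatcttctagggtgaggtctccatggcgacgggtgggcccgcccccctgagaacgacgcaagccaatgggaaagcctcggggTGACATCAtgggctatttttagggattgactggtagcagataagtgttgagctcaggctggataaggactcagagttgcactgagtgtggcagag
Fos: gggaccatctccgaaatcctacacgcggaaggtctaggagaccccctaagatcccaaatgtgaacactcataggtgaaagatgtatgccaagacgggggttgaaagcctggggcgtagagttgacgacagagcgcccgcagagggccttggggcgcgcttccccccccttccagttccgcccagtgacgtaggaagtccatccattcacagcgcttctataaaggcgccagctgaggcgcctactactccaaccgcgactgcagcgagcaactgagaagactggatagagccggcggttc
TGACATCA lies in 3.62% of all such windows. The letters searched, on both strands, were TGANTCA and TGACATCA for AP-1, TGACGTCA for CREB and ATF factors, GCGNGGGCG for EGR proteins, CCGGAAG for ETS factors, and the CArG box. In that order they were found in 7.81%, 3.62%, 1.79%, 5.55%, 8.86% and 1.63% of windows, and no 2 matches in the member windows overlapped. No window was read for Egr1, which was left out of the search, or for Egr3 and Fosl1, for which RefSeq windows were missing. The matches below therefore say nothing of these genes. Of the 7 members whose window was read, Fosb and Fosl2 carried GCGNGGGCG and Fos, Junb and Jund carried none of the 6. The RefSeq starts on which the windows of Fosl2 and Jund rest lie 671 and 1210 bases from the GENCODE start of the principal transcript. These windows may therefore describe another start. The SRF site known in Fos lies farther upstream than this window, and the absence of a match says only that these letters are not in the window.

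**Figure D2:**
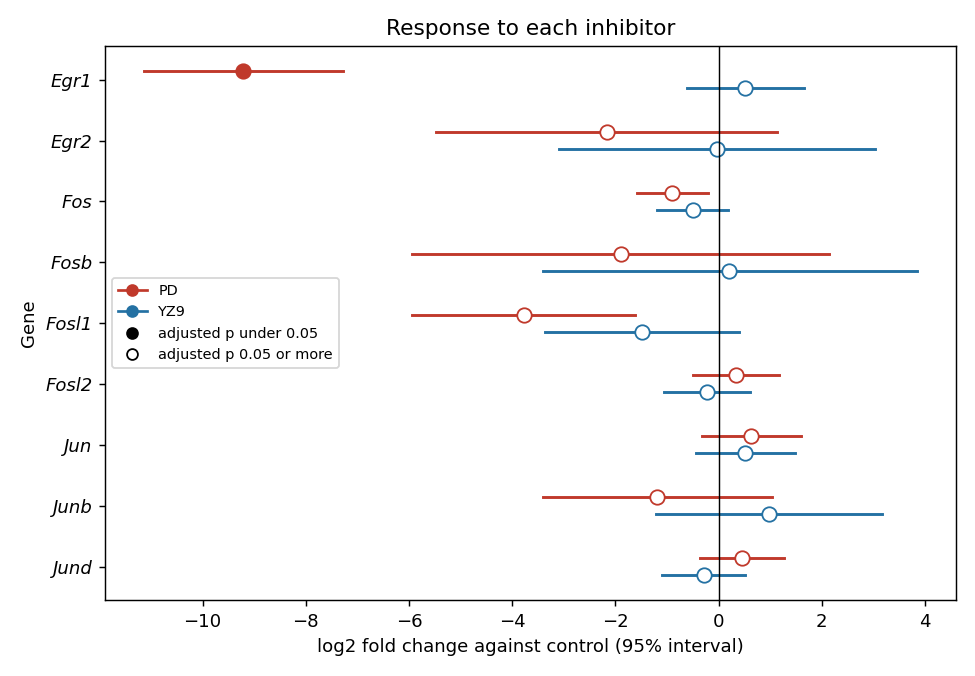
log2 fold change of the 9 tested genes with PD (red) and YZ9 (blue) against the same 2 controls, with 95% intervals from the edgeR fit; filled points passed at an adjusted p under 0.05. Only Egr1 with PD is filled, at -9.21, and the PD intervals of Fosl2, Jun and Jund all include 0.

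The members thus spanned a wide range of responses to the same inhibitor. With PD, 5 of the 9 tested members (Egr1, Egr2, Fos, Fosb and Fosl1) had both libraries below both controls, a pattern that 19.5% of all tested genes showed, and 2 (Jun and Jund) had both above, as did 19.2% of genes. Fosl2 and Junb overlapped the controls. Egr1, Egr2, Fosb and Fosl1 passed the filter on low counts only through the groups where they were higher, so these counts are a description. At an unadjusted p under 0.05 stood 3 members, Egr1, Fosl1 and Fos, with 10.8% of all genes under that value. The 95% intervals of Fosl2, Jun and Jund reached no lower than -0.50, -0.33 and -0.36, while those of Egr1 and Fosl1 reached no higher than -7.27 and -1.63. The interval of Fos, -1.59 to -0.21, overlapped those of Fosl2, Jun and Jund. The difference between members was not tested. Intervals of Egr2, Fosb and Junb were wide enough to hold a log2 fold change of 0 as well as a decrease beyond that fitted for Fos.

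YZ9 was compared with control to ask what an inhibitor aimed at glycolysis did to the same genes. No member passed: edgeR called 0 of 9 lower and 0 higher, where 0.00642% and 0% of all genes were called. DESeq2 and limma-trend also called 0, where they called 3.39% and 0.00642% of genes, as did the authors' deposited table, with 3.85% of its genes called. An unadjusted p under 0.05 in edgeR was reached by 0 members and 11.3% of genes. For Egr1 the log2 fold change was 0.52 (SE 0.47, 95% interval -0.62 to 1.66, adjusted p = 0.706), which was -0.37 without YZ9 replicate 1. Fos, Fosl1 and Jund had both YZ9 libraries below both controls, as did 24.5% of genes, and 0 members had both above, against 21.1%. Junb had the widest interval among the members with a mean over 10 CPM, with a log2 fold change of 0.98 (95% interval -1.21 to 3.17, adjusted p = 0.712). Since PD and YZ9 share their controls, the response to each was also set apart by testing PD against YZ9 directly. There Egr1 again was the 1 member called lower, with 0.045% of genes called lower, and 0 were called higher, against 0.0771%. Egr1, Egr2, Fosl1 and Junb had both PD libraries below both YZ9 libraries, as did 21.4% of genes, and Jund had both above, as did 21.6%. An unadjusted p under 0.05 was reached by 2 members, Egr1 and Fosl1, and by 11.5% of genes. The difference for Fosl1 was -2.30 (SE 0.89, 95% interval -4.43 to -0.17, adjusted p = 0.412) and for Jun 0.11 (SE 0.40, 95% interval -0.85 to 1.07, adjusted p = 0.944).

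Levels of different genes were compared as CPM per kb of exon. The full exon length was used, although 877 of the 1668 exonic bases of Jund and 1163 of the 2033 of Fosl1 are shared with opposite-strand genes. If reads of the shared stretches were not counted, the levels of both genes are too low, and their places in the order are uncertain. In controls Jun was at 33.2 ± 18.9, Fos at 24.4 ± 2.77, Junb at 17.1 ± 16.1 and Egr1 at 8.405 ± 2.72 CPM per kb (SD, n = 2), and each of these overlapped its neighbour in the order. Jund at 4.79 ± 0.158 and Fosl2 at 4.29 ± 1.02 CPM per kb followed and overlapped each other. Fosl1 at 1.38 ± 0.113, Egr2 at 0.618 ± 0.436, Fosb at 0.0722 ± 0.0172 and Egr3 at 0.00427 ± 0.00604 CPM per kb were each separate from the next. With PD, Egr1 moved from the fourth place in this order to the last but one, at 0.0131 ± 0.00578 CPM per kb, where it overlapped Fosb, and Jun, at 51.3 ± 4.39, lay clear of Fos, at 13.0 ± 3.27. With YZ9 the first 4 genes, Jun, Junb, Fos and Egr1, overlapped one another in turn.

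The FOS and JUN levels per kb were also expressed as shares of their sum. This is a description of which AP-1 transcripts were on hand and not of protein. The limit given above for the exon lengths of Jund and Fosl1 holds for these shares too. The FOS family took 29.2% and 47.3% of the sum in the control libraries, 20.8% and 23.3% under PD and 18.3% and 24.2% under YZ9. Both treated groups lay below the controls and overlapped each other. The share of Fos was 23.4% and 38.8% in controls and 13.2% and 17.8% with PD. Jun took 41.3% and 34.3% in controls and 59.2% and 63.0% with PD, more than in any control, while with YZ9 it took 39.4% and 55.7%. Fosl1 took 1.29% and 2.24% in controls and 0.0232% and 0.206% with PD. Junb ranged from 9.91% to 25.4% in controls and from 15.0% to 39.3% with YZ9, against 7.98% to 9.99% with PD. With 2 libraries a group no permutation test of such a share can reach significance, and none was run.

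**Figure D3:**
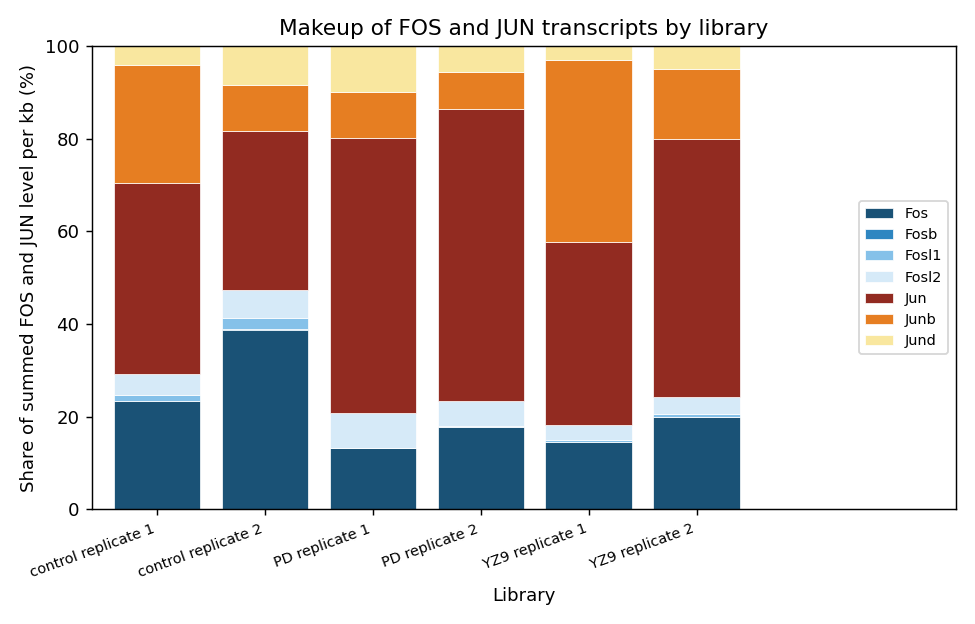
Share of each FOS (blue) and JUN (red to yellow) gene in the summed level per kb of exon (%), 1 bar for each library. Jun takes 59.2% and 63.0% in the PD libraries, and Junb takes 39.3% in YZ9 replicate 1.

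Several members differed widely between the 2 libraries of a group, a pattern noticed after the values were seen. In controls replicate 1 exceeded replicate 2 by 1.59 times for Egr1, 2.99 times for Egr2, 2.35 times for Jun and 4.98 times for Junb. In the YZ9 group the same 4 genes were 2.72, 3.37, 1.54 and 5.70 times higher in replicate 1. These were 4 of the 9 tested members at 1.5 times or more in both groups, where 6.82% of all tested genes were. Egr1 in controls and Jun with YZ9 lay just over 1.5. Genes of other lists shared it: Gadd45b, Zfp36l1, Arc, Nr4a1, Csrnp1 and Zfp36 of 29 other immediate early genes tested, Etv5, Etv4, Dusp4 and Spred2 of 12 ERK feedback genes, and Mafk, Nab2 and Maff of 13 AP-1 partners and EGR cofactors. Of the FOS members 0 of 4 did, and of the AP-1 targets 0 of 11. The SRF, JNK and heat shock lists had 1 gene each, of 6, 8 and 9 tested. No marker list had more than 1. With PD, Junb was 1.18 and Jun 0.886 times as high in replicate 1 as in replicate 2, whereas Egr1 had a ratio of 1.91 on counts of 2 and 1, and Egr2 had 24 and 0 counts. The ratio of Fos was 1.175 in controls, 0.6985 with PD and 1.577 with YZ9, and that of Fosl2 was 1.404, 1.343 and 1.892 in the same order, so both passed 1.5 in the YZ9 group alone. That of Jund was 0.9543, 1.645 and 1.296. The blood markers were lower in replicate 1 of every group, and in the YZ9 group replicate 1 was male and replicate 2 female whereas both controls were male. The part of either in the difference was not tested.

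**Figure D4:**
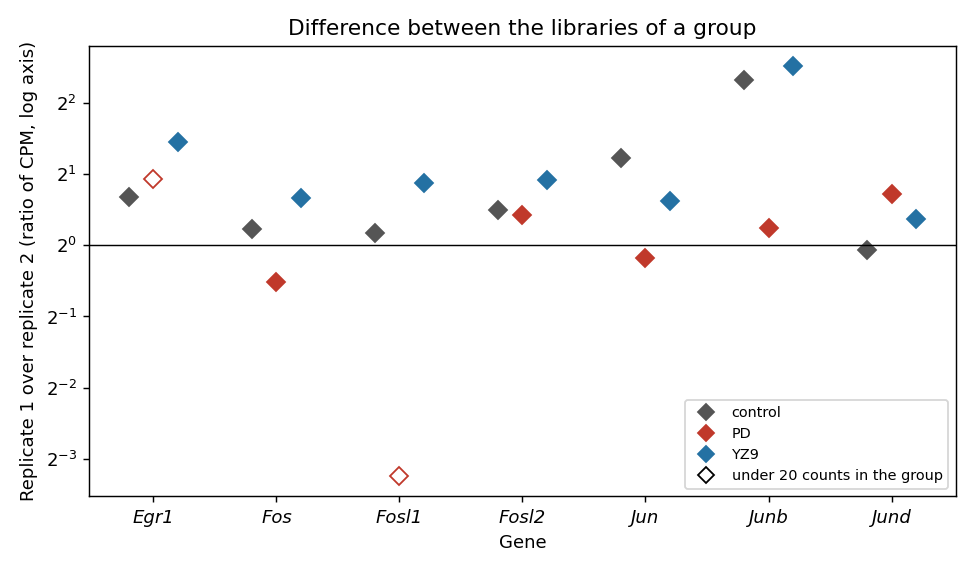
Ratio of CPM in replicate 1 to replicate 2 (log axis) for 7 genes in each group; open symbols mark groups with under 20 counts. Junb stands at 4.98 in controls and 5.70 with YZ9, and at 1.18 with PD.

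The pathway around these factors was described from lists of genes. ERK feedback genes, which report the activity of the cascade, had both PD libraries below both controls in 12 of 12 tested, where 19.5% of all genes did. Of these Spry4, Spry2 and Spred1 fell, 0 rose and 9 did not pass, with 0.0771% of all genes called lower and 0.0193% higher, and the median log2 fold change over the list was -4.23. With YZ9 0 of the 12 passed and the median was -0.16. AP-1 partners and EGR cofactors, among them the small MAF proteins and the NAB corepressors that EGR proteins induce and that restrain them, had 0 of 13 tested members past the threshold with PD, a median of -0.01, and Maff with the smallest p, whose mean was 18.7 ± 7.03 CPM in the control group and 4.86 ± 1.18 CPM in the PD group (SD, n = 2, log2 fold change -1.94, SE 0.43, adjusted p = 0.186 with edgeR). SRF and its ternary complex factors, which carry the ERK signal to these promoters, had 0 of 6, a median of -0.07, and Elk3 with the smallest p, at 64.4 ± 3.68 and 26.3 ± 10.4 CPM (n = 2, log2 fold change -1.29, adjusted p = 0.208 with edgeR). For Srf itself, named after its values were seen, it was -0.07 (SE 0.37, adjusted p = 0.977). The JNK cascade, which phosphorylates JUN, had 0 of 8 and a median of 0.15, with Mapk8ip1 at 1.55 (adjusted p = 0.397).

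The other immediate early genes had 0 of 29 tested members past the threshold with PD and a median log2 fold change of -0.22. Pim1, a kinase gene, had the smallest p, with 76.4 ± 4.03 CPM in the control group and 29.4 ± 5.13 CPM in the PD group (SD, n = 2, log2 fold change -1.38, SE 0.21, adjusted p = 0.106 with edgeR). With YZ9 0 of 29 passed, and Klf6 had the smallest p, with a log2 fold change of -0.60 (adjusted p = 0.211). Heat shock genes that respond to dissociation had 0 of 9 past the threshold with either inhibitor, with Dnajb1 at 0.30 with PD (adjusted p = 0.489) and Hsph1 at 0.36 with YZ9 (adjusted p = 0.416). Genes known as AP-1 targets had 1 of 11 tested members called lower and 0 higher with PD, where 0.0771% and 0.0193% of all genes were, and a median of -0.74. The 1 called was Ccnd1, the cyclin D1 gene (log2 fold change -3.34, SE 0.26, adjusted p = 0.0378). Mmp9, a matrix protease and AP-1 target named after its values were seen, was at 320.5 and 214 CPM in controls, 4.61 and 6.52 CPM with PD, and 225 and 40.4 CPM with YZ9 (log2 fold change with PD -5.58, SE 0.85, adjusted p = 0.106). Timp1 had the smallest p of this list with YZ9, with a log2 fold change of -0.99 (adjusted p = 0.253), and 0 of the 11 passed there.

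With YZ9 the AP-1 partners, SRF regulators and JNK cascade also had 0 members past the threshold, with medians of 0.27, 0.05 and 0.31, and in the SRF and JNK lists Mrtfb, an SRF coactivator, and Mapk8ip1, a JNK scaffold, had the smallest p. Their differences on the log2 scale were -0.49 and 1.56, with edgeR adjusted p of 0.445 and 0.402. Spry4 had the smallest p of the ERK feedback genes with YZ9, at -0.91 (adjusted p = 0.422). In PD against YZ9 the ERK feedback genes Spred1, Spry4 and Spry2 and the AP-1 target Ccnd1 were called lower, with log2 fold changes of -2.79 for Spred1, -3.70 for Spry2 and -3.12 for Ccnd1, and Spry4 had 0 counts in both PD libraries. In the other lists 0 members were called there, and the smallest p belonged to Maff at -2.31 (adjusted p = 0.142), Elk3 at -0.78 (adjusted p = 0.425), Mapk10 at 4.16 (adjusted p = 0.344), Klf6 at 1.02 (adjusted p = 0.0569) and Hsph1 at -0.27 (adjusted p = 0.522).

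Genes whose level followed a member most closely were ranked by Pearson's r of log2(CPM + 1) over the 6 libraries, among 8661 other tested genes with a mean of at least 10 CPM. The libraries share their treatment groups, so r is given as a description. Egr1 was followed most closely by Bcr (r = 0.999), Etv5 (r = 0.995) and Mdn1 (r = 0.991). Bcr was at 38.1 and 34.3 CPM in controls, 15.7 and 15.3 CPM with PD and 41.2 and 32.9 CPM with YZ9. Fos was followed most closely by Arhgap28 (r = 0.995), Myo6 (r = 0.988) and Tns3 (r = 0.988), Fosl1 by Efhd2 (r = 0.993), Itpripl2 (r = 0.992) and Ssh2 (r = 0.991), and Jun by Ralgapb (r = 0.997), Dpp3 (r = 0.988) and Pygb (r = 0.988). A correlation over 0.95 was reached by 53 of the 8661 genes for Egr1, 8 for Fos, 29 for Fosl1 and 49 for Jun.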

How the data were processed

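Polyadenylated RNA of 6 explant libraries was compared in 3 groups of 2. Per the submitters' processing notes the tools were DESeq2 1.40.1, STAR 2.7.9a and CASAVA 1.8.2, the build was GRCm38, and the counting step is not given in the sources used here. Per the file headers, the 2 deposited tables hold each library's whole-number counts, a signal in which the authors divided counts by a size factor, log2 fold changes with standard errors, a Wald score, and DESeq2 p-value columns. Control counts were identical in both tables and the counts were joined.

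Genes passing filterByExpr (minimum count 10, minimum total 15) were scaled by TMM and tested in 1 fit with edgeR 4.0.16 (R 4.3.3) by quasi-likelihood, 2-sided, with Benjamini-Hochberg adjustment and a threshold of 0.05. A standard error is the size of the fold change (log2) divided by the root of its F. Ratios for 1 to 3 counts have exact 95% binomial intervals, which cover counting error only. Exon lengths and positions come from GENCODE M21, and promoters from RefSeq. Alternatives used limma 3.58.1 and DESeq2 1.42.0, and the steps were tested on simulated data. Chi-square between the libraries of a group was 54.8 to 96.0 per gene, where sampling gives about 1.

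The members, lists and tests were chosen with earlier results of these data known. The naming rule took every member, up to 4 genes of each list past the threshold or else that with the smallest p, and the 3 genes most like Egr1, Fos, Fosl1 and Jun; 1 gene it takes is not reported here. The lists were EGR and AP-1 cofactors, SRF regulators, JNK cascade, immediate early genes, AP-1 targets, ERK feedback and heat shock genes, and markers of mesoderm, visceral and definitive endoderm, ectoderm, trophoblast, epiblast, blood and endothelium.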

Additional observations from a re-analysis of the deposited data

How the results depend on the processing

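With 2 libraries a group, low counts and the spread between libraries limit what could be called. Leaving out each library in turn gave 0 to 1 members called for PD against control, 0 to 0 for YZ9 against control and 0 to 1 for PD against YZ9. The number for PD against control was 2 (Egr1 and Fosl1) with no filter, with DESeq2, with DESeq2 on the filtered genes and in the male libraries alone, the last 2 chosen after seeing the data. For PD against YZ9 it was 2 (Egr1 and Junb) with no filter and 0 in the 4 libraries alone. The cause was not tested.

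Without division by length the mean FOS share was 30.2% with PD (22.0% with it) and 25.5% with YZ9 (21.2%). Directions turned for YZ9 against control in Fosb with limma-trend (-0.60) and with the replicate block (-0.85), in Egr2 with sex as a covariate (1.1) and in the male libraries alone (0.61), and in Fosl2 under the same settings (0.05 and 0.18). Jun for PD against YZ9 turned in the male libraries alone (-0.27). Leaving out 1 library gave ranges across 0 for YZ9 against control in Egr1 (-0.37 to 1.08), Egr2 (-1.14 to 0.96), Fosb (-6.61 to 1.26), Fosl2 (-0.74 to 0.18) and Junb (-0.75 to 2.56), for PD against control in Junb (-1.93 to 0.39), and for PD against YZ9 in Fosb (-3.55 to 4.70) and Jun (-0.19 to 0.45).

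The replicate block left 1 member called for PD against control, 0 for YZ9 against control and 1 for PD against YZ9, and over all genes it moved the calls from 15 to 1, from 1 to 3 and from 19 to 12. The difference between replicates 1 and 2 correlated over genes at -0.098 between control and PD, 0.166 between control and YZ9 and 0.353 between PD and YZ9. The PD pair and the YZ9 pair both set a male against a female library, so sex and a shared batch cannot be told apart there. The replicate numbers state no shared litter or day, so the block was kept as an alternative.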
